A study of Mus musculus with 12 samples.

Results

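The ion channel genes, channel modulators and GABA genes described here are Fgf12, Fam155a, Clcn2, Abat and Gabrr3, measured in cortical neurons of mice that received nicotine or saline. They were chosen by name from a deposited table of 35129 gene entries, of which 16468 held a count, and all 5 members were found in it. Of the members, 4 were counted in every library and 1, Gabrr3, held no count in any. Abat was 2.96-fold higher in somatostatin interneurons than in layer V pyramidal neurons. For nicotine, edgeR called no member and no other entry among the 6689 tested in interneurons and the 6048 tested in pyramidal neurons. Without its filter on low counts it called 8 and 13 entries, none of them a member.

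FGF12 is an intracellular member of the FGF family that is not secreted but binds the tail of voltage-gated sodium channels and shifts their inactivation. FAM155A is an auxiliary subunit of NALCN, the sodium leak channel that brings the resting potential of a neuron closer to threshold, and CLCN2 is a chloride channel that opens on hyperpolarization and can carry chloride out of the cell. ABAT is the mitochondrial transaminase that breaks down GABA, the transmitter of cortical interneurons, and GABRR3 is a rho subunit of a GABA-gated chloride channel, a subunit family best known from the retina.

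The study compared somatostatin interneurons with layer V pyramidal neurons and asked what chronic nicotine changes in each. Sst-neurons came from GIN mice (FVB background), in which enhanced green fluorescent protein labels only a group of the somatostatin cells, and Thy1-neurons came from YFPH mice (B6 background), in which a Thy1 transgene drives yellow fluorescent protein. All mice were males of 20 g and 5 to 7 weeks, and a subcutaneous mini pump gave them nicotine hydrogen tartrate at 48 mg/kg/d (groups Sst+Nic and Thy1+Nic) or saline (groups Sst and Thy1) for 14 days. Fluorescent cells were picked by hand from digested cortex in tubes of 10 cells, and RNA was amplified before sequencing. Of the 12 samples 10 libraries were used: all 3 of the Sst group, all 3 of the Thy1+Nic group, and replicates 2 and 3 in each of the other groups, whose first replicates were left out of the analysis. Cell type, mouse line and strain background change together in this design and cannot be told apart.

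A library held between 2915738 and 4878326 counted fragments, and levels are given as CPM, the counts per 1000000 fragments of that total. The total is that of the table as it stands, in which entries along much of the genome hold few or no counts, so CPM, the mitochondrial share and the limits for a count of 0 are relative to this total and not to all fragments of a library. Where a library held no count of a gene, up to 3 counts were allowed for, which is a limit of 0.615 to 1.03 CPM and covers counting error only. Mitochondrially encoded genes took 16.3% to 22.1% of the fragments in Sst-neurons with or without nicotine and 31.4% to 38.5% in Thy1-neurons. The gene Sst itself was at 53779 to 126088 CPM in the 5 Sst-neuron libraries and at 1.15 to 49.2 CPM in 4 Thy1-neuron libraries, but Thy1 replicate 3 carried 3795 CPM of it and stands apart. Many entries of the table hold few or no counts along long parts of the chromosomes, so only entries on chromosome 8 up to 15 Mb, chromosome 16 up to 88 Mb and chromosome 19 up to 6 Mb were used to rank levels, to read other genes of the pathways and to look for entries that ran like a member. Shares of entries called are given over all entries tested, of which 462 to 510 lie in these stretches. In these stretches 58.2% of 648 mRNA entries reached a mean of 10 CPM, against 13.2% of 18015 mRNA entries elsewhere, and all 5 members lie in them. The 6 pyramidal neuron markers that were listed lie outside the stretches, so the label of the Thy1-neurons was checked only by their low Sst.

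The members differ in how they sit in the genome and in what lies before their start sites. On GRCm38 with the GENCODE annotation, Fgf12 spans chr16:28160098-28753068 on the minus strand, Fam155a chr8:9205902-9771161 on the minus strand and Clcn2 the short chr16:20702964-20717746 on the minus strand. Abat spans chr16:8513429-8621568 and Gabrr3 chr16:59407332-59464504, both on the plus strand. The RefSeq promoter table of GRCm38.p6 held windows for 3 of the 5 members, with 4 starts for Fgf12 and 1 each for Clcn2 and Gabrr3; there were none for Abat and Fam155a. The 250 bases before a start are printed for the most abundant member, the member with the most variable level in Sst-neurons and the member without counts, with each CpG dinucleotide in capitals. They come from chr16:28753244-28753493 for the outermost Fgf12 start (minus strand), chr16:20716637-20716886 for Clcn2 (minus strand) and chr16:59407132-59407381 for Gabrr3 (plus strand). The Clcn2 window lies inside the span given for the gene, before a RefSeq start within it, and the end of the Gabrr3 window reaches into the span of that gene:
Fgf12: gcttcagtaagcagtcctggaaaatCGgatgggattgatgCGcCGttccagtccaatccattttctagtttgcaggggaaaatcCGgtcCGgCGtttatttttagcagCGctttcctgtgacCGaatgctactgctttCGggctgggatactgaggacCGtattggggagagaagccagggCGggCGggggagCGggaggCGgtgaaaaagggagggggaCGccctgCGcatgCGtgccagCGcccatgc
Clcn2: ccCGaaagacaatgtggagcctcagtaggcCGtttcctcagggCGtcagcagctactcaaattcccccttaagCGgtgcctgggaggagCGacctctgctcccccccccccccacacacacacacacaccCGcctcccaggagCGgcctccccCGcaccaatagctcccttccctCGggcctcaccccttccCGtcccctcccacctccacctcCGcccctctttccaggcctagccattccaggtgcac
Gabrr3: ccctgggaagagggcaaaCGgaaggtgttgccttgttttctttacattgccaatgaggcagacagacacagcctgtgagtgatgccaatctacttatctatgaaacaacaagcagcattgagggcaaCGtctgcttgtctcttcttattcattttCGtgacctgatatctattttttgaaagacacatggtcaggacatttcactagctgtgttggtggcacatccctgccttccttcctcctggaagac
The Fgf12 window held 18 CpG and its other 3 starts 24, 25 and 20, the Clcn2 window held 11, and the Gabrr3 window held 3. The median of 32851 RefSeq promoter windows of the same length was 6, so the windows of Fgf12 and Clcn2 lie above it and that of Gabrr3 below it. The letters TATAAA and CACGTG were searched on both strands, where they occur in 12.4% and 6.02% of all windows, and neither occurs in any of the 6 member windows.

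The members cover a wide range of levels, and Abat was the only one whose cell type difference passed the threshold in edgeR; Clcn2 did so in limma voom or with a looser filter on low counts. Divided by the length of their exons, the means over 10 libraries were 279 ± 38.2 CPM per kilobase of exon for Fgf12, 84.2 ± 59.3 for Abat, 49.1 ± 12.2 for Fam155a and 8.72 ± 5.01 for Clcn2 (SD, n = 10). On this scale Fgf12 lay above every other member in each library, and Clcn2 lay below the other 3 members with counts in each library. Abat and Fam155a changed places with the cell type: Abat was the higher of this pair in the 5 Sst-neuron libraries and the lower in 4 of the 5 Thy1-neuron libraries, Thy1+Nic replicate 3 being the exception. By CPM, Fgf12 ranked 12 among the 648 mRNA entries of the stretches, Abat 32, Fam155a 72 and Clcn2 246.

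**Figure D1:**
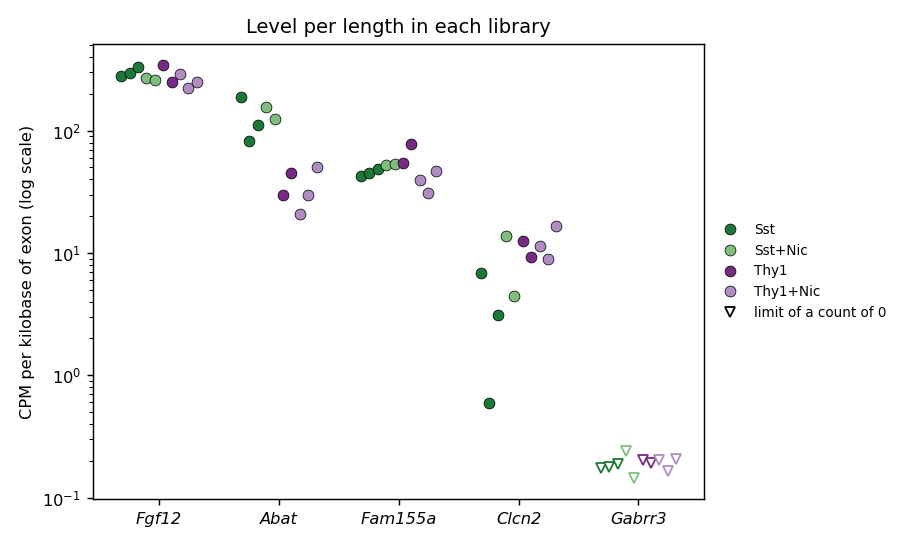
Level of each member in each of the 10 libraries, as CPM per kilobase of exon on a log axis, coloured by group; open triangles mark the level that a count of 0 allows. Fgf12 lies at the top in a narrow band, Abat separates by cell type, Clcn2 spreads widely among the Sst libraries, and Gabrr3 has only limits.

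Fgf12, the sodium channel modulator, was the member with the steadiest level. It was at 1748, 1836 and 2057 CPM in Sst, 1665 and 1609 in Sst+Nic, 2150 and 1542 in Thy1, and 1787, 1382 and 1552 in Thy1+Nic. The highest library, Thy1 replicate 2, belongs to the same group as one of the lowest, so the cell types overlap. Both Sst+Nic libraries lie below all Sst libraries, as for 4.78% of the 6689 entries tested. The coefficient of variation over the 10 libraries was 13.7%, against 24.9% for Fam155a, 57.5% for Clcn2 and 70.4% for Abat. In the quasi-likelihood test of edgeR with TMM normalization, which rescales libraries to the bulk of the genes, Fgf12 differed between Sst- and Thy1-neurons over both treatments by a log2 fold change of -0.29 (SE 0.17, 95% interval -0.65 to 0.07, adjusted p = 0.352). The sign of that value turned to 0.04 when library totals were used without TMM, and neither scaling passed the test.

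Fam155a, the NALCN subunit, was at 277 to 319 CPM in Sst, 340 and 348 in Sst+Nic, 354 and 508 in Thy1, and 258, 204 and 307 in Thy1+Nic. Among the Sst libraries it was tight, at a mean of 298 ± 20.6 CPM (SD, n = 3). The Thy1 group held the highest library, replicate 3, and the Thy1+Nic group the lowest, replicate 2. In CPM both Thy1 libraries lay above all Sst libraries, a pattern that 15.3% of the 6350 entries tested showed in that direction. The log2 fold change between Sst and Thy1 was -0.71 (SE 0.29, 95% interval -1.40 to -0.02, adjusted p = 0.294 by edgeR), so Fam155a was below an unadjusted p of 0.05 there, as were 16.3% of entries, and missed the threshold after adjustment. The value ranged from -1.07 without Thy1 replicate 2 to -0.33 without Thy1 replicate 3, the library with Sst RNA. Over both treatments it was -0.39 (SE 0.21, 95% interval -0.85 to 0.07, adjusted p = 0.324), an interval that includes 0.

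Clcn2, the chloride channel, was at 41.3, 3.57 and 18.6 CPM in Sst, 82.3 and 26.6 in Sst+Nic, 75.1 and 55.5 in Thy1, and 68.5, 54.1 and 99.3 in Thy1+Nic. The lowest value, in Sst replicate 2, rests on 14 fragments, with a Wilson 95% interval of 2.13 to 5.99 CPM for counting error only. Every Sst library lay below every Thy1 library, as for Fam155a and 15.3% of the entries tested, while Sst+Nic replicate 2 reached into the range of the Thy1+Nic libraries. Relative to its mean the Sst group varied most, at 21.2 ± 19 CPM (SD, n = 3, a coefficient of variation of 89.7%), against 54.5 ± 39.4 CPM (n = 2, 72.2%) in Sst+Nic, while the Thy1-neuron libraries stayed between 54.1 and 99.3 CPM.

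Over both treatments Clcn2 had a log2 fold change of -1.43 between Sst- and Thy1-neurons (SE 0.52, 95% interval -2.57 to -0.30, adjusted p = 0.143 by edgeR), which missed the threshold of 0.05 used for DEGs (differentially expressed genes) together with a fold of 2. In the saline groups the value was -1.88 (SE 0.84, adjusted p = 0.327) and with nicotine it was -0.98 (SE 0.54, adjusted p = 0.467). Both values moved with single libraries. The saline value was -2.73 without Sst replicate 1 and -1.44 without Sst replicate 2. The value with nicotine was -1.83 without Sst+Nic replicate 2 and -0.47 without Sst+Nic replicate 3. A permutation of cell type labels within treatment, exact over 100 arrangements and two-sided, gave p = 0.09 for a mean difference of -1.34 in log2(CPM + 1), and p = 0.02 when CPM were scaled by TMM. The adjusted p was 0.0351 in limma voom with sample quality weights and 0.0561 in DESeq2, so whether Clcn2 counts as a DEG depends on the test.

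Both ends of Clcn2 overlap genes on the opposite strand. The tail of Fam131a shares 85 bases with it and the start of Polr2h, a subunit of RNA polymerases, shares 82 bases. The library kit does not mark the strand, so fragments in these bases cannot be told apart. Fam131a was at 116 to 219 CPM in Sst-neuron libraries and 887 to 1044 CPM in Thy1-neuron libraries, and Polr2h at 134 to 339 CPM and 353 to 587 CPM. Both are higher in Thy1-neurons, which is the direction of the Clcn2 values, and their part in them was not tested.

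**Figure D2:**
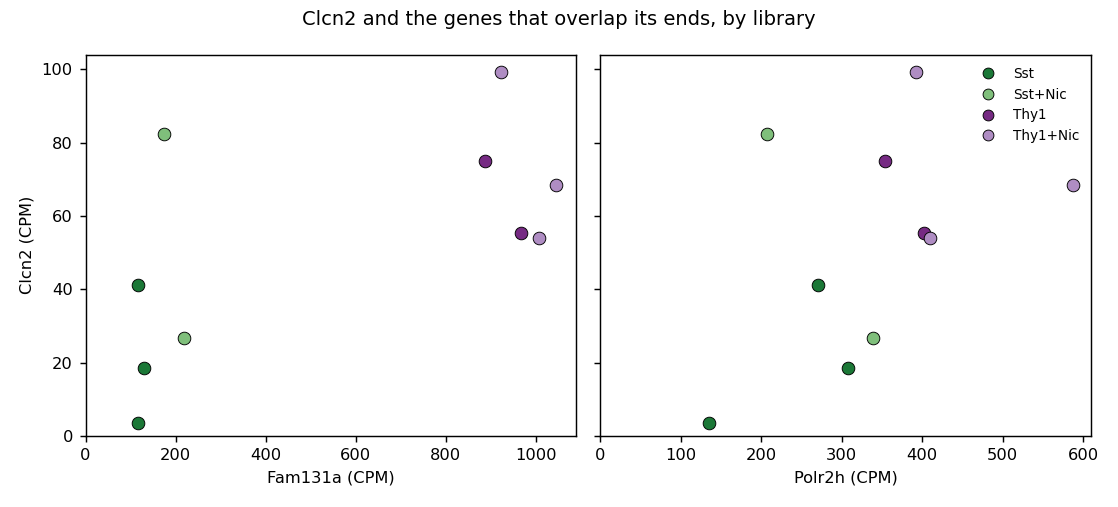
CPM of Clcn2 on the vertical axis against CPM of Fam131a (left) and Polr2h (right), the genes that overlap its ends, with 1 point per library coloured by group. Fam131a and Polr2h both split the libraries by cell type, whereas Clcn2 runs from 3.57 to 82.3 CPM among the Sst-neuron libraries at Fam131a levels of 116 to 219 CPM.

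Abat, the enzyme of GABA breakdown, was higher in Sst-neurons than in Thy1-neurons. It was at 1474, 644 and 857 CPM in Sst and 1218 and 973 CPM in Sst+Nic. In Thy1 it was at 231 and 347 CPM, and in Thy1+Nic at 160, 231 and 388 CPM. The 5 Sst-neuron libraries and the 5 Thy1-neuron libraries do not overlap, the lowest of the first being Sst replicate 2 and the highest of the second Thy1+Nic replicate 3. Group means were 991 ± 431 (SD, n = 3) in Sst, 1095 ± 173 (n = 2) in Sst+Nic, 289 ± 81.9 (n = 2) in Thy1 and 260 ± 116 (n = 3) in Thy1+Nic.

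Over both treatments the log2 fold change of Abat was 1.57 (SE 0.27, adjusted p = 0.00482 by edgeR), or 2.96-fold, with a 95% interval of 1.97 to 4.45-fold. Abat was thus the 1 member called among the 4 tested in this comparison, in which 4.95% of 8242 entries were called and 2.17% were called higher in Sst-neurons. Among the 510 tested entries of the stretches, where the members lie, 10.8% were called. Without an overlap between the libraries of both cell types, 5.33% of all 8242 entries tested were higher in Sst-neurons. The exact permutation within treatment gave p = 0.01, the smallest that 100 arrangements can give, for a mean difference of 1.94 in log2(CPM + 1). In bulk libraries of picked cells, fewer cells with Abat and less Abat RNA per cell cannot be told apart.

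The Abat difference was of similar size in the saline and the nicotine groups, with an interaction of 0.03 on the log2 scale (95% interval -1.12 to 1.17), but with 5 libraries each neither reached the threshold alone. The log2 fold change was 1.55 (SE 0.36, adjusted p = 0.100) between Sst and Thy1, a comparison in which 1.72% of 6350 entries, 4.09% of the 465 in the stretches and 0 of the 4 members were called by edgeR. It was 1.59 (SE 0.36, adjusted p = 0.111) between Sst+Nic and Thy1+Nic, in which 0.507% of 6509 entries, 1.67% of the 479 in the stretches and 0 of the 4 members were called. These shares moved with single libraries: with each left out, 33 to 55 entries were called in place of 109 without nicotine, and 0 to 56 in place of 33 with it. At an unadjusted p under 0.05 edgeR held 2 members in the first comparison, Abat and Fam155a (16.3% of entries), and 1 in the second, Abat (15.8% of entries), and DESeq2 called 1 member, Abat, in each, beside 8.68% and 7.62% of all entries. Without Thy1 replicate 3, the library with Sst RNA, the value over both treatments was 1.78 (adjusted p = 0.000717), and no library decided the call when each was left out in turn.

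**Figure D3:**
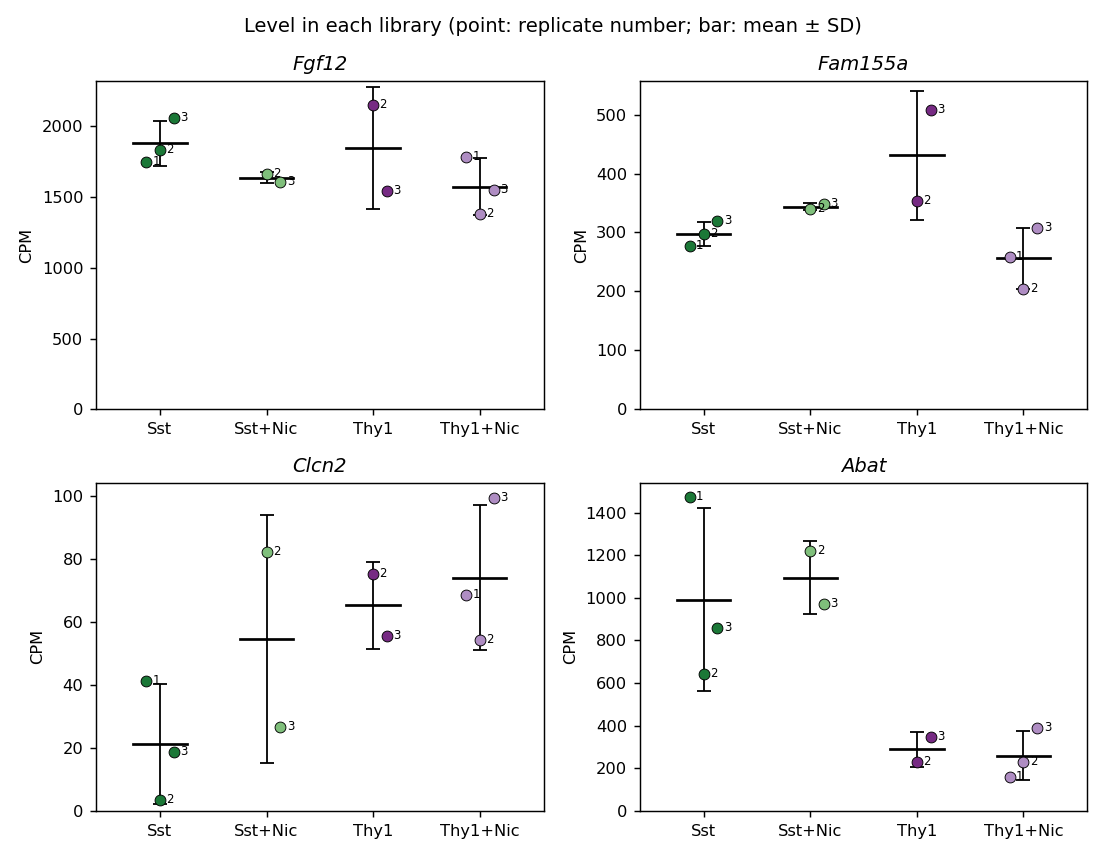
CPM of the 4 members with counts in each library, by group; points carry the replicate number and bars give the mean and SD (n = 3, 2, 2 and 3). Abat shows 2 bands, 644 to 1474 CPM in Sst-neurons and 160 to 388 CPM in Thy1-neurons, whereas Fgf12 overlaps between the cell types and Clcn2 spreads most in Sst+Nic in CPM.

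Gabrr3, the rho subunit, had 0 fragments in all 10 libraries. With 3 counts as the limit, its level was at most 0.0796 CPM over the 37674061 fragments of all libraries. By group this limit was 0.258 CPM in Sst, 0.385 in Sst+Nic, 0.421 in Thy1 and 0.27 in Thy1+Nic. Its expression was therefore not detectable at this depth in either cell type or treatment, and no difference can be given. With it, 108 of the 648 mRNA entries of the stretches (16.7%) were at 0 in every library, 107 of them other genes. On one side of it lie the olfactory receptor genes Olfr203 to Olfr206, also at 0, and on the other Crybg3, Arl6 and Epha6 with mean levels of 14.5, 194 and 36.5 CPM.

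The question of what nicotine changes in each cell type had no member among its DEGs. In Sst+Nic against Sst edgeR called 0 of the 4 members and 0% of 6689 entries, and in Thy1+Nic against Thy1 0 of the 4 members and 0% of 6048 entries. None of the 4 members was at an unadjusted p under 0.05 in edgeR in either comparison, where 4.19% and 4.37% of entries were. DESeq2 called 0 members in both, beside 0.239% and 0.231% of entries, and held 1, Fam155a in Thy1-neurons, at an unadjusted p under 0.05, as it did 6.66% of entries there. Over both cell types together edgeR called 0 of the 4 members and 0% of 8242 entries, with 0 members at an unadjusted p under 0.05 in edgeR (5.61% of entries) and in DESeq2. In simulated data with a log2 change of 3 and less dispersion than the real data, edgeR missed many changed genes. It called 29% of them for Sst+Nic against Sst, 38% for Thy1+Nic against Thy1 and 89.5% over both cell types.

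The intervals show what remained possible. For Abat the nicotine difference in Sst-neurons was -0.04 on the log2 scale (95% interval -0.72 to 0.65) and in Thy1-neurons -0.10 (-1.02 to 0.83), so that a change of about the size of its cell type difference lies outside both intervals. For Fgf12 it was -0.43 (-0.98 to 0.13) and -0.11 (-0.70 to 0.47). Both Sst+Nic libraries of Fgf12 were below the Sst libraries, as were 4.78% of the entries tested. For Clcn2 it was 1.19 (-0.98 to 3.36) in Sst-neurons, an interval that runs from 0.507-fold to 10.3-fold, and 0.27 (-0.65 to 1.19) in Thy1-neurons. With each library left out, the value in Sst-neurons ran from 0.33 (without Sst+Nic replicate 2) to 1.99 (without Sst replicate 1), and it was 0.70 without Sst replicate 2 and 1.69 without Sst+Nic replicate 3.

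Fam155a had an opposite order of its libraries in the 2 cell types. In CPM both Sst+Nic libraries lay above all Sst libraries, as for 16% of entries, and all Thy1+Nic libraries lay below both Thy1 libraries, as for 13.7% of entries. After TMM the difference in Sst-neurons was -0.02 on the log2 scale (95% interval -0.66 to 0.62), so the rise in CPM did not hold under this scaling, and that in Thy1-neurons was -0.68 (-1.39 to 0.04, adjusted p = 1), or -0.26 without Thy1 replicate 3, the library with Sst RNA, and -0.98 without Thy1 replicate 2. The interaction of nicotine and cell type was 0.64 (SE 0.42, 95% interval -0.27 to 1.55, adjusted p = 0.775 by edgeR), or 0.26 and 0.97 without these libraries in the same order. Among the members 0 of 4 were called for the interaction by edgeR or DESeq2, with 0 at an unadjusted p under 0.05 in either (7.34% of entries in edgeR), and 0% of 8242 entries were called by edgeR. In Sst+Nic against Thy1+Nic the CPM of Fam155a did not overlap, with Sst+Nic higher as for 30.3% of entries, while the log2 fold change after TMM was -0.06.

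**Figure D4:**
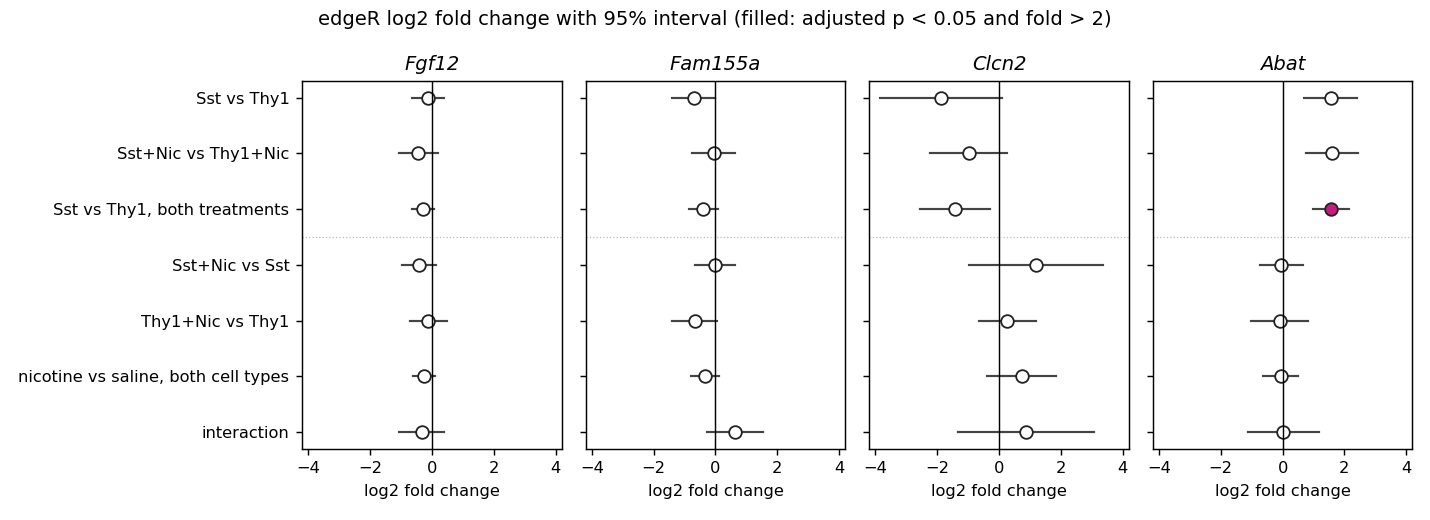
Log2 fold changes of the 4 members with counts (edgeR with TMM, 95% intervals as lines) in the 3 cell type comparisons above the dotted line and in the 3 nicotine comparisons and the interaction below it; a filled point marks an adjusted p under 0.05 and a fold above 2. The 1 filled point is Abat at 1.57 between the cell types over both treatments, and the widest intervals belong to Clcn2.

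Few other genes of these pathways could be read. Of 39 GABA genes, 28 chloride channel genes, 5 genes of the NALCN complex and 21 genes of FGF homologous factors and sodium channels, the stretches held only 2, 2, 1 and 1, and the single one outside the members was Lrrc8e, a subunit of volume-regulated anion channels, at a mean of 0.966 CPM. Of 271 genes of other ion channel families 6 lay there. Cnih2, which binds AMPA receptors as an auxiliary subunit, was at 2.30 to 44.9 CPM in Sst-neurons and 33.6 to 103.7 CPM in Thy1-neurons. Its log2 fold change over both treatments was -1.80 (SE 0.58, adjusted p = 0.100), the 1 value among the 4 of these genes tested with an unadjusted p under 0.05 in edgeR, against 21.6% of all entries. Grin2a, an NMDA receptor subunit, had a mean of 34.0 CPM and a log2 fold change of 0.46 (SE 0.47, adjusted p = 0.642), and Mcoln1, a lysosomal cation channel, a mean of 76.8 CPM and 0.17 (SE 0.44, adjusted p = 0.910). P2rx6, an ATP receptor subunit, averaged 1.91 CPM, with a log2 fold change of -3.67 (SE 2.16, adjusted p = 0.365). Kcnk7 of the two-pore potassium channel family had counts only in Sst replicate 1 at 11.2 CPM, and Catsper1 of sperm had none. Of the 7 genes outside the members 4 were tested and 0 were called in this comparison, against 4.95% of all entries, with 2 values above 0 and 2 below and a median log2 fold change of -0.81 against 0.08 for all entries. In the nicotine comparisons 0 were called by edgeR, and 0 were at an unadjusted p under 0.05.

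Markers of cells that could come along with picked neurons were low or uneven. Cldn5, which marks endothelial cells, was at 0 in 6 libraries, and its sum with Heg1 was at most 35.7 CPM. The summed level of 3 microglial genes was at most 84.7 CPM in Sst and 0 to 16.8 CPM in the other groups, and that of 3 genes of mural cells and vascular matrix was 44.5 to 183 CPM in all groups. Hes1, listed as an astrocyte gene, was at 2.06 to 21.9 CPM in Sst-neurons and 30.1 to 72.0 CPM in Thy1-neurons, which is the direction of the Clcn2 values and the opposite of that of Abat. Apod, listed for oligodendrocytes, was at 20.9 to 402 CPM in Sst-neurons and 0 to 194 CPM in Thy1-neurons, and highest in Sst+Nic. The highest values of Apod and of the microglial genes lay in Sst-neurons, which is the direction of Abat, although the cell types overlap in both. The part of these cells in the values of the members was not tested.

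The libraries that carried much of a member can also be described by the entries that followed it most closely. Over the 10 libraries, among 429 entries with at least 10 counts in 5 libraries, Abat ran closest to Cd200, a membrane glycoprotein (Pearson r = 0.96), and Rbfox1, a neuronal splicing factor (r = 0.96), and most opposite to Rpl35a, a ribosomal protein gene (r = -0.97). The nearest for Clcn2 were Ift57 (r = 0.89), of intraflagellar transport, and Ppp1ca (r = 0.87), a phosphatase subunit, with Arvcf, of the catenin family, most opposite at -0.73. For Fgf12 they were Rsl1d1 (r = 0.76) and Cdc16 (r = 0.66), with 2610020C07Rik at -0.79, and for Fam155a Senp7 (r = 0.76), a SUMO protease, and Cblb (r = 0.72), a ubiquitin ligase, with Hira, a histone chaperone, at -0.64. By Spearman's rho Senp7 was at 0.62, Cblb at 0.78 and Hira at -0.25, and the entries nearest to Fam155a were others, Txnrd2 (rho = 0.84) and Usp25 (rho = 0.79). The nearest by rho was Sec22a for Clcn2 (0.92), Rbfox1 for Abat (0.98) and Rsl1d1 for Fgf12 (0.75). These are the extremes of 429 values over 10 points that share 2 cell types, depth and RNA amplification, and they are a description. Among the 4 members themselves r ranged from -0.34, between Clcn2 and Abat, to 0.18, so they did not move as a group.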

How the data were processed

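The authors amplified cDNA with a SMARTer kit, made libraries with an Ovation kit that does not mark the strand, sequenced them as read pairs and aligned them with TopHat to mouse genome mmu10.p2 (GRCm38). HTSeq is listed in the submitters' processing notes, without a version, and the annotation used for counting is not given in the sources used here. The deposited table holds fragment counts per gene entry that the authors did not normalize, and these counts were used as they stand. Wilson intervals and the limit of 3 counts cover counting error only. The groups come from different mice, 3 in each group of the study, but the sources used here do not state which mouse gave which library.

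The members and gene lists were chosen with earlier results of these data known. The members are always named; other genes are named where they belong to the GABA and channel lists and lie in the stretches, or are the 2 entries most like a member and the 1 least like it. The ends of the stretches were taken, rounded down, from an earlier comparison of these entries with the group values of the study; the first 1 Mb was left out. Lengths are unions of GENCODE exons. Sequences are from RefSeq GRCm38.p6.

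Differences were tested with the quasi-likelihood test of edgeR 4.0.16 in R 4.3.3 (TMM, filterByExpr with a minimum count of 10), as the study's EBSeq was not run here. A call needed an adjusted p (Benjamini-Hochberg over all entries tested) under 0.05 and a fold above 2. A comparison of 2 groups used their 5 libraries, and the others all 10 libraries. Simulated data had a log2 change of 3 in 200 genes and a dispersion of 0.4, below the common dispersion of 0.826 to 1.19 in the data. Of the changed genes 35.5% were called in the Sst and Thy1 design, 92.0% over both treatments and 0.5% for the interaction. For nicotine 29% were called in the Sst-neuron design, 38% in the Thy1-neuron design and 89.5% over both cell types. Single members were tested by exact permutation on log2(CPM + 1), two-sided, as unadjusted p-values. Alternatives used DESeq2 1.42.0, limma 3.58.1, other scalings, filters and fits, a replicate block and each library left out; a fit on entries of the stretches alone and the permutation for the interaction were added after the values were seen.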

Additional observations from a re-analysis of the deposited data

Results flagged for a closer look

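Fam155a was singled out because its libraries moved in opposite directions with nicotine: in CPM both Sst+Nic libraries lay above all Sst libraries and all Thy1+Nic libraries below both Thy1 libraries. With the nicotine difference of Thy1-neurons subtracted from that of Sst-neurons, the value was 0.953 in log2(CPM + 1), made of 0.21 in Sst-neurons and -0.74 in Thy1-neurons. An exact permutation of the nicotine labels within each cell type, two-sided over 100 arrangements and chosen after the values were seen, gave p = 0.02 among 4 members examined, and 5.19% of 8242 entries had a p under 0.05 in it. Fam155a was picked by the order of its libraries, which makes its value the highest of the 100 arrangements. A low p therefore follows from the choice and is no support for a difference. The 5.19% covers entries that were not picked in this way. That permutation assumes no nicotine difference in either cell type, so that a difference in 1 of them can also lower its p. With CPM scaled by TMM the value was 0.60 and p = 0.16, and without Thy1 replicate 3, the library with Sst RNA, it was 0.69 and p = 0.075 by the same exact test, where 0.025 is the smallest p possible. Without each of the other 9 libraries in turn it was 0.80 to 1.21. Where every group kept at least 2 libraries, the exact test gave p = 0.017 to 0.033, and 0.017 is the smallest p possible there. Leaving out a library does not undo the order by which Fam155a was picked, so these p-values are no separate support. With mitochondrially encoded genes left out of the total the value was 0.87 with p = 0.02 by the exact test. The interaction in edgeR was 0.64 (SE 0.42, adjusted p = 0.775), with 0.26 (adjusted p = 1) without Thy1 replicate 3 and 0.97 (adjusted p = 1) without Thy1 replicate 2.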

How the results depend on the processing

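The call of Abat over both treatments held under every alternative run, with log2 fold changes of 1.37 to 1.78 when each library was left out (1 member called each time). Clcn2 joined it, so that 2 members were called, in limma voom (adjusted p = 0.0351), without a filter (0.0397) and with a filter that asks for 10 counts in 1 library (0.0289), where 8.36%, 4.41% and 6.9% of all entries were called, against 4.95% in edgeR. Between Sst and Thy1, 0 members were called and 1 was, Abat, in DESeq2 (with 8.68% of all entries), without a filter (3.28%), with the filter on 10 counts (2.89%) and with entries of the stretches alone (5.07%), against 1.72% in edgeR. Between Sst+Nic and Thy1+Nic 1 was, Abat, in DESeq2 (7.62%), limma voom (0.999%), without a filter (2.65%) and with the filter on 10 counts (2.91%), against 0.507% in edgeR. Leaving out each library gave 0 to 0 members in both, and 0 in the nicotine comparisons and the interaction under all alternatives, where 0% to 0.243% of all entries were called.

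Library totals without TMM moved the median log2 fold change of all entries from 0.05 to 0.22 (Sst vs Thy1), 0.09 to 0.59 (with nicotine) and 0.08 to 0.40 (both treatments), and raised the share of calls that were higher in Sst-neurons from 45.5% to 70.8% with nicotine and from 43.9% to 64.5% over both treatments. Under it Fgf12 turned to 0.0269 (Sst vs Thy1), 0.0572 (with nicotine), 0.042 (both treatments) and 0.0303 (interaction), Fam155a to 0.42 between the cell types with nicotine and 0.21 for nicotine in Sst-neurons, and Abat to 0.14 for nicotine in Sst-neurons. With entries of the stretches alone, Fgf12 turned to 0.0383 (Sst vs Thy1), Fam155a to 0.13 and 0.0687 and Abat to 0.0403 in the same comparisons, and in limma voom Abat turned to 0.0112. These values passed no test, and the cause was not tested. With all libraries, entries called ranged over the alternatives from 24 to 551 (109 in edgeR, Sst vs Thy1), 9 to 496 (33, with nicotine) and 49 to 861 (408, both treatments), of which 24 and 49 come from fits on the 473 and 508 entries of the stretches alone, 9 from the block and the highest from DESeq2. With each library left out they were 33 to 55, 0 to 56 and 326 to 432; with nicotine, 1, 1 and 0 were called without Thy1+Nic replicates 1, 2 and 3.

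The replicate numbers mark separate mice, and the groups of each comparison of 2 groups have only numbers 2 and 3 in common. Over 555 entries any 2 libraries correlated at 0.786 to 0.913 in log2(CPM + 1). After the group mean of each entry was subtracted, same-numbered libraries correlated at -0.164 to 0.028, so they were not read as pairs. In a group of 2 libraries these deviations mirror each other, so the values are not independent. With the replicate block 0 members were called between Sst and Thy1 (59 entries in place of 109), 0 with nicotine (9 in place of 33) and 1 over both treatments (377 in place of 408); Fgf12 turned to 0.0069 (Sst vs Thy1) and Abat to 0.24 and 0.17 for nicotine in Sst- and Thy1-neurons. Clcn2 moved most, from -1.88 to -3.02 between Sst and Thy1 (adjusted p = 0.264 by edgeR), from 1.19 to 2.16 for nicotine in Sst-neurons and from 0.87 to 1.70 for the interaction (adjusted p = 1 for both).

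In the permutations the number of members with p under 0.05 between the cell types was 1 (with 18.1% of 8242 entries), and 2 with TMM-scaled CPM (Abat and Clcn2, 16.8% of entries) and with mitochondrially encoded genes left out of the total (Abat and Fgf12, 16.9%). Fgf12 turned to -0.29 and -0.23 under these scalings, and Abat for nicotine to -0.0451 and -0.0179. For nicotine it was 0 (2.68% of entries), 1 with mitochondrially encoded genes left out (Fgf12, -0.23; 2.8%) and 0 to 1 with each library left out (1.25% to 2.34%); Fgf12 for the interaction turned to -0.33 and -0.0669. Leaving out each library gave -0.0657 to 0.17 for Fgf12 and -0.17 to 0.10 for Fam155a between the cell types, -0.17 to 0.17 for Abat with nicotine and -0.22 to 0.26 for Fgf12 in the interaction. In edgeR it gave, for nicotine, -0.21 to 0.25 (Abat, Sst-neurons), -0.42 to 0.36 (Abat, Thy1-neurons), -0.25 to 0.16 (Abat, both), -0.40 to 0.39 (Abat, interaction), -0.19 to 0.10 (Fam155a, Sst-neurons) and -0.24 to 0.0551 (Fgf12, Thy1-neurons), and -0.23 to 0.0706 for Fam155a between the cell types with nicotine. For Clcn2 it gave -2.73 to -1.44, -1.83 to -0.475 and -1.84 to -1.19 between the cell types (saline, nicotine, both), 0.33 to 1.99, 0.0812 to 0.424 and 0.325 to 1.14 for nicotine (Sst-neurons, Thy1-neurons, both) and 0.0513 to 1.69 for the interaction.

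Each comparison of 2 groups had 5 libraries, and the common dispersion in edgeR was 0.826 to 1.01.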
